A study of Mus musculus with 6 samples.

Results

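The genes described here encode the core of the spliceosome and the large families of RNA-binding proteins that steer it, the SR and the hnRNP proteins. They were chosen by symbol: Snrpa to Snrpg, Lsm, Sf3a, Sf3b and Snrnp70 for the core particles, Srsf, Scaf, Srrm1 and Srrm2 for the SR and SR-related proteins, and Hnrnp for the hnRNP proteins. Snrpn was left out. This gave 186 of the 45101 probe sets of the array and 65 of 18194 genes: 74 probe sets of core particles, 54 of SR and SR-related genes and 58 of hnRNP genes. A further 11 probe sets that were assigned to several symbols, with a gene of these families among them, were not used.

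RNA came from whole FVB mouse embryos at 10.5 days of gestation. The diabetes-exposed embryos were carried by dams in which 2 injections of streptozotocin, a toxin of pancreatic beta cells, had been given at 100 mg per kg body weight within 1 week. By the study's methods they were 7 to 9 weeks old when diabetes was induced, and no age is stated for the control dams. The diabetic dams had blood glucose above 250 mg per dl at mating. The control embryos were from pregnancies without diabetes. Each group consisted of 3 pools of RNA from 3 embryos of different pregnancies, all of them without visible malformation, and each pool was measured on 1 Affymetrix Mouse 430 2.0 array. Streptozotocin and the diabetes that follows it cannot be told apart in this design.

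A gene's introns are removed by the spliceosome, which assembles on each transcript from small nuclear ribonucleoproteins. Sm proteins form a ring around the U1, U2, U4 and U5 RNAs, LSm proteins form a related ring on U6 RNA, and the SF3a and SF3b complexes hold U2 at the branch point. SR proteins bind exons and recruit these particles to nearby splice sites, whereas hnRNP proteins coat the new transcript and often oppose them. In humans, mutations of SNRPB and SF3B4 cause malformations of the face, ribs or limbs, and in mice loss of Srsf1 or Srsf2 in heart muscle leads to cardiomyopathy.

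The promoters of 6 genes to which the results below return are shown here, from RefSeq on GRCm38.p6, each with 250 bases before and 50 bases after the start of the gene and written along the transcribed strand. Snrpe, Snrpf and Snrpg encode 3 neighbouring proteins of the Sm ring, all higher in exposed pools. Hnrnpa0, Hnrnpd and Scaf1 were all lower. Capitals mark the ETS motif CCGGAAG and the motif CCAAT on either strand, which overlap nowhere in these sequences except that the copies of CCGGAAG on both strands of Snrpe overlap each other. TATAAA was also searched and had no match in these 6 windows.
Snrpe, chr1:133610231-133610530, minus strand: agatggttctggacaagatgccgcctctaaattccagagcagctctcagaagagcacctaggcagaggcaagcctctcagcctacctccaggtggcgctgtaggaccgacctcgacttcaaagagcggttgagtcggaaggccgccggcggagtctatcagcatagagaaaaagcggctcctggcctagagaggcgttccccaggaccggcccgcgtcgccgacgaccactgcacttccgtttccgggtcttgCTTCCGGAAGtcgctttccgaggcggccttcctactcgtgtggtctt
Snrpf, chr10:93589609-93589908, minus strand: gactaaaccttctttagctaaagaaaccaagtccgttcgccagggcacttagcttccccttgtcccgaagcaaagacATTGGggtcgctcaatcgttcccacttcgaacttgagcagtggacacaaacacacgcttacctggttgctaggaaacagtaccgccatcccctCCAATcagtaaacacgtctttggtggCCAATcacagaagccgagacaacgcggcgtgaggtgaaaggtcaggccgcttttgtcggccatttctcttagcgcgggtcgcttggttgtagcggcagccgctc
Snrpg, chr6:86371290-86371589, plus strand: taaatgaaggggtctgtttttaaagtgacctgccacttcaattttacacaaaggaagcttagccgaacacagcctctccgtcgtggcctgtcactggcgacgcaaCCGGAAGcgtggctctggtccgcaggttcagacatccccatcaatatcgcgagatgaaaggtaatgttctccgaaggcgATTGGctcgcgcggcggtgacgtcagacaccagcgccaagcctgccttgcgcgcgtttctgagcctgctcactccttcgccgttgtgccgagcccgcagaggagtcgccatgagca
Hnrnpa0, chr13:58128507-58128806, minus strand: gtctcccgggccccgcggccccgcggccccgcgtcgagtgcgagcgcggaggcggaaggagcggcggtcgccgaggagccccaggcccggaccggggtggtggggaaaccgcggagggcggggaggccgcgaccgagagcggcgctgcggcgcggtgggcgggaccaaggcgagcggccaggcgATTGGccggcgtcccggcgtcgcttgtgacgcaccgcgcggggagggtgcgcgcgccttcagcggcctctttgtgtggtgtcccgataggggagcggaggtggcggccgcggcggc
Hnrnpd, chr5:99978889-99979188, minus strand: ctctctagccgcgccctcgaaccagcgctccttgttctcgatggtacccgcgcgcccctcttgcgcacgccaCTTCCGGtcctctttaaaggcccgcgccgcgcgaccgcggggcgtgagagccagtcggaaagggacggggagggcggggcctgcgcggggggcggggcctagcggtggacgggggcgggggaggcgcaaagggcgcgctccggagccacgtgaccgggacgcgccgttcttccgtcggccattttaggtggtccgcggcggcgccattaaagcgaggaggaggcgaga
Scaf1, chr7:45016200-45016499, minus strand: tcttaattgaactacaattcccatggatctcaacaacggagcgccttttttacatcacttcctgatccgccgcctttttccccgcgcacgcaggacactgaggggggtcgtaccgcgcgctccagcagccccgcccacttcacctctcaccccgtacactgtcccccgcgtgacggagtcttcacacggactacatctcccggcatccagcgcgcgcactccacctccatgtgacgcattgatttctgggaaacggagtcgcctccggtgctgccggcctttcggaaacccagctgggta
Snrpe held 2 matches to CCGGAAG, Snrpg and Hnrnpd 1 each, and Snrpf 3 matches to CCAAT. Snrpg and Hnrnpa0 held 1 match to CCAAT each, and Scaf1 held none of the motifs.

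Of the 65 genes, 57 had such a promoter in the RefSeq table, with 74 windows in all because some genes have several starts. CCGGAAG was found in 27.0% of these 74 windows, against 8.86% of 32851 promoters of all genes. Among the core particles it was in 40.7% of 27 windows, among the SR and SR-related genes in 23.8% of 21, and among the hnRNP genes in 15.4% of 26. CCAAT was in 61.5% of the hnRNP windows, in 37.0% of the core windows and in 28.6% of the SR windows, against 37.4% of all promoters. TATAAA was in 6.76% of the windows of these families, against 13.6% of all promoters. Windows of 1 gene share bases, and these shares describe the letters of the promoters only.

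The arrays of the exposed pools differed from those of the control pools in the signal ratios of array controls. The poly-A spikes do not come from the embryo, whereas beta-actin and Gapdh RNA are the embryos' own. The ratio of 3' to middle signal of the bacterial poly-A RNAs spiked into each sample was 6.56, 3.47 and 7.00 in exposed replicates 1, 2 and 3, against 2.10, 2.07 and 2.52 in control replicates 1, 2 and 3. The 3' to 5' ratio of beta-actin was 10.1, 3.09 and 10.3 in exposed pools, against 1.71, 1.76 and 2.19 in control pools, and that of Gapdh was 1.84, 0.972 and 1.72 in exposed pools, against 0.824, 0.832 and 0.921 in control pools. None of the 3 ratios overlapped between groups (two-sided exact permutation test, p = 0.1 for each, the smallest that 3 against 3 pools allow). In a fit with the spike ratio as a covariate, far fewer genes were called anywhere on the array, so values from that fit are given beside the results. Because the ratio did not overlap between groups, this fit cannot fully tell the ratio and exposure apart. A call that it keeps or ends is therefore no verdict on either. Median signals were 74.1 to 78.9 on exposed arrays and 82.5 to 103.3 on control arrays. Neural, heart, primitive red cell and mesenchyme markers were detected in both groups. At an adjusted p under 0.05, 1 of 5 neural markers was higher in exposed pools and 4 lower, and 4 of 5 heart markers were higher and 0 lower. Of 5 mesenchyme and somite markers 1 was higher and 2 lower, and of 4 primitive red cell markers 0 were called. Over all genes 17.6% were higher and 19.9% lower. In the fit with the spike ratio 2 neural markers were lower and 1 heart marker higher, where 1.73% of all genes were lower and 0.0788% higher. Prl8a2, a decidual prolactin relative, was at 39.0, 39.3 and 30.7 in exposed pools, against 6522.1, 5698.9 and 6412.2 in control pools. Of the 10 placental and decidual markers listed, only 2 passed the filter on dim signals, Prl8a2 and 1 that was not called (log2 fold change -0.09). The summed signal of these 2 was 326.2 to 537.6 in exposed pools and 6147.5 to 6894.6 in control pools, with Prl8a2 making up most of the control signal. The part of these differences in the results was not tested. In whole embryos, fewer cells of a type and less RNA per cell cannot be told apart.

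All 65 genes had at least 1 probe set above the filter on dim signals, and 173 of the 186 probe sets passed it. Each gene was read at its probe set with the highest mean signal. Between exposed and control pools, 23 of the 65 genes were higher and 11 were lower at an adjusted p under 0.05, and 31 were not called. Over all 13956 genes tested, 17.6% were higher and 19.9% were lower. The median log2 fold change was 0.10 over these 65 genes and -0.000254 over all genes. At least 2-fold decreases were seen in 3 of the 65, Scaf1, Hnrnpa0 and Hnrnpul2, where 6.01% of all genes were that much lower, and none of the 65 increased by that much, where 1.03% of all genes did. The groups did not overlap in 40 of the 65 genes, against 52.3% of all genes. The classes differed in their counts. Of the core particle genes 17 of 30 were higher and 2 lower (median 0.37). Of the SR and SR-related genes 2 of 16 were higher and 4 lower (median -0.09), and of the hnRNP genes 4 of 19 were higher and 5 lower (median 0.02). The core median was 0.67 with arrays centred on their medians, 0.23 with quantile and 0.19 with loess normalization. The SR median was 0.21 with arrays centred on their medians, and the hnRNP median was -0.26 with quantile and -0.30 with loess normalization. These scalings moved the median of all genes as well, to 0.30 with arrays centred on their medians, 0.14 with quantile and 0.08 with loess normalization. In each of them the core median was above that of all genes and the SR median below it. The difference between classes was not tested.

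**Figure D1:**
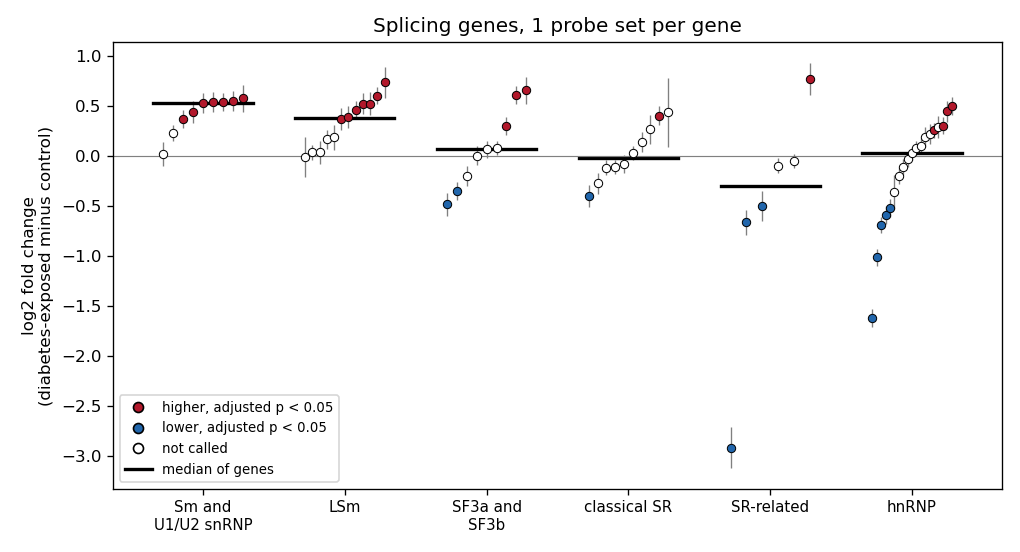
Log2 fold change (diabetes-exposed minus control, y axis) of 65 splicing genes by class, each read at its probe set with the highest mean signal. Points are genes with their standard error (3 pools per group), filled where the adjusted p was under 0.05, and bars are medians. Sm and LSm genes lie above 0 or, for Lsm11, at -0.01, and Scaf1, at -2.92, is the lowest point. The hnRNP and SR medians change sign under other scalings of the arrays, which also move the median of all genes.

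Among the proteins of the Sm ring and of the U1 and U2 particles, 7 of 9 genes were higher in exposed pools. None was lower (median 0.53), where 17.6% of all genes were higher and 19.9% lower. Snrpe, a subunit of the ring, had signals of 26477.1, 21830.8 and 27792.4 in exposed replicates 1, 2 and 3, against 17310.1, 17159.9 and 18103.6 in control replicates 1, 2 and 3 (log2 fold change 0.53 ± 0.10 (SE), adjusted p = 0.00433). Every exposed pool was above every control pool, and exposed replicate 2 was the lowest of its group. Snrpf had 6909.2, 6349.7 and 9250.1 in exposed pools, against 5028.7, 4840.2 and 5046.4 in control pools (log2 fold change 0.57 ± 0.13 (SE), adjusted p = 0.00991). Here exposed replicate 3 was the highest pool. For Snrpg the signals were 24314.5, 18792.0 and 23519.1 in exposed pools and 15487.6, 16092.6 and 17270.4 in control pools (log2 fold change 0.44 ± 0.11 (SE), adjusted p = 0.0132). Its groups stood apart as well, with a narrower gap between exposed replicate 2 and control replicate 3. All 3 of these genes were chosen after their values were seen, as neighbours within the ring. With loess normalization Snrpe was at 0.086 (adjusted p = 0.273) and Snrpg at 0.02 (adjusted p = 0.842), and with quantile normalization Snrpg was at 0.13 (adjusted p = 0.106), so that these calls ended. Snrpe was read by 1 probe set, whose name marks possible binding to several transcripts.

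Snrpb, which encodes another ring subunit, averaged 11292 ± 1035 in exposed pools and 8740 ± 428 in control pools (SD, n = 3 each, log2 fold change 0.37 ± 0.09 (SE), adjusted p = 0.0131). Its second probe set, with 6788.0, 7682.3 and 6544.2 in exposed pools and 7776.6, 7256.5 and 7426.3 in control pools, was not called (log2 fold change -0.10), and the call of Snrpb ended with quantile (0.03, adjusted p = 0.620) and loess normalization (0.07, adjusted p = 0.410). Snrpd3, also of the ring, had 9837.8, 9987.7 and 8651.2 in exposed pools against 8102.4, 7841.7 and 8347.5 in control pools and was not called at this probe set (log2 fold change 0.23 ± 0.08 (SE), adjusted p = 0.0614), although the groups did not overlap. Of the proteins bound to U1 RNA, Snrpc, which stabilises its pairing with the 5' splice site, was the more clearly higher: 7629.3, 7411.5 and 8027.3 in exposed pools, against 5392.0, 4809.7 and 5726.4 in control pools (log2 fold change 0.54 ± 0.09 (SE), adjusted p = 0.00242). Snrnp70, the U1 70K protein, had overlapping signals of 2428.9, 2884.3 and 2123.2 in exposed pools and 2562.6, 2397.8 and 2319.4 in control pools (log2 fold change 0.02, adjusted p = 0.913). Both proteins specific to U2 were higher at their brightest probe sets. Snrpa1 was at 7632.8, 6664.1 and 8147.5 in exposed pools and at 4876.4, 4890.7 and 5593.9 in control pools (log2 fold change 0.55 ± 0.10 (SE), adjusted p = 0.00385), and Snrpb2 at 7496.6, 6876.2 and 7074.7 in exposed pools and at 4448.7, 4814.6 and 5589.9 in control pools (log2 fold change 0.54 ± 0.10 (SE), adjusted p = 0.00382). For Snrpa1 1417352_s_at was higher (log2 fold change 0.40) and 1417353_x_at was not called (-0.33), and its average over probe sets, 0.20, was not called (adjusted p = 0.108). For Snrpb2 neither 1426613_a_at (-0.14) nor the dim 1452131_at (-1.43) was called, and its average was -0.34 (adjusted p = 0.186).

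The LSm genes followed the same course, with 7 of 12 higher and none lower (median 0.38), against 17.6% and 19.9% of all genes. Lsm3, Lsm6 and Lsm8 belong to the ring on U6 RNA. Lsm3 had 9203.9, 8128.4 and 7961.1 in exposed pools, against 5521.3, 5205.0 and 5917.7 in control pools (log2 fold change 0.60 ± 0.09 (SE), adjusted p = 0.00164). Lsm6 had 5604.8, 4667.7 and 5653.9 in exposed pools, against 3380.2, 3661.5 and 4053.0 in control pools (log2 fold change 0.52 ± 0.11 (SE), adjusted p = 0.00605). Lsm8, the subunit that sets this nuclear ring apart from the cytoplasmic one, had 7157.5, 5790.9 and 6409.7 in exposed pools, against 4036.0, 4328.5 and 5149.7 in control pools (log2 fold change 0.52 ± 0.12 (SE), adjusted p = 0.00873). In these 3 genes no exposed pool fell within the control range. Lsm1, which takes the place of Lsm8 in the cytoplasmic ring that promotes mRNA decapping, was also higher, with 1628.1, 1621.5 and 1729.5 in exposed pools and 1217.8, 1130.7 and 1284.7 in control pools (log2 fold change 0.46 ± 0.09 (SE), adjusted p = 0.00543). Lsm2, Lsm4 and Lsm7, shared by both rings, were not called, with log2 fold changes of 0.04, 0.03 and 0.18 and groups that overlapped in each.

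Other LSm proteins work outside U6. Lsm10, a subunit of the U7 particle that processes histone transcripts, was higher, with 1236.2, 1478.9 and 1240.6 in exposed pools, against 976.6, 958.5 and 1088.5 in control pools (log2 fold change 0.38 ± 0.11 (SE), adjusted p = 0.0243). Its partner Lsm11 overlapped fully, with 199.7, 148.9 and 162.9 in exposed pools and 198.2, 145.4 and 173.2 in control pools (log2 fold change -0.01, adjusted p = 0.964). Lsm12 gave the highest fold among the LSm genes, 1.66-fold, with 668.4, 725.6 and 922.2 in exposed pools and 396.0, 487.9 and 502.6 in control pools (log2 fold change 0.73 ± 0.16 (SE), adjusted p = 0.00710). Lsm14a, a protein of cytoplasmic granules that hold silent mRNA, was higher at its brightest probe set with 6688.3, 5223.8 and 6128.5 in exposed pools and 4620.4, 4316.2 and 4991.0 in control pools (log2 fold change 0.37 ± 0.11 (SE), adjusted p = 0.0268). Another of its probe sets fell, as described below.

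Genes of the SF3a and SF3b complexes were called in both directions: 3 of 9 were higher, 2 lower and 4 not called (median 0.07). These are shares of 33.3% higher and 22.2% lower, where 17.6% of all genes were higher and 19.9% lower. Sf3b6, the small subunit that lies at the branch point adenosine, had 8589.4, 7509.2 and 8659.7 in exposed pools, against 5270.2, 5162.8 and 5763.7 in control pools (log2 fold change 0.61 ± 0.09 (SE), adjusted p = 0.00150), the smallest adjusted p of all core genes. Sf3b5, another small subunit, had 7801.7, 8226.7 and 11410.8 in exposed pools, against 5808.1, 5534.0 and 5845.8 in control pools (log2 fold change 0.65 ± 0.14 (SE), adjusted p = 0.00651), and Sf3a3 had 3748.4, 3942.6 and 4144.7 in exposed pools, against 3046.6, 3083.4 and 3513.8 in control pools (log2 fold change 0.30 ± 0.09 (SE), adjusted p = 0.0297). In contrast, Sf3a2 was lower, at 4008.5, 2941.6 and 3506.6 in exposed pools, against 4741.0, 4998.0 and 4787.6 in control pools (log2 fold change -0.49 ± 0.11 (SE), adjusted p = 0.0109). Sf3b2 was at 3735.7, 3902.4 and 3562.7 in exposed pools, against 4308.9, 5025.3 and 4970.6 in control pools (log2 fold change -0.35 ± 0.09 (SE), adjusted p = 0.0154). In both lower genes the groups stood apart, and both calls ended with median centring (-0.19 for Sf3a2 and -0.05 for Sf3b2). Both tested probe sets of Sf3a2 were called lower, the other with a log2 fold change of -1.02. Of the 7 tested probe sets of Sf3b2, 5 were called lower and 0 higher, over a range from -3.13 to -0.02. Sf3b1, the large subunit that closes around the branch site, had 6500.5, 6682.5 and 6165.5 in exposed pools and 5749.3, 6024.3 and 6753.9 in control pools, which overlapped (log2 fold change 0.07, adjusted p = 0.596). Sf3b4 was not called either (log2 fold change 0.08).

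Of the 19 calls among core genes, 13 were made whichever pool was left out. The other 6 ended in at least 1 of these fits. Sf3a3 was not called without control replicate 1 or 2 or exposed replicate 1 or 3 (adjusted p up to 0.121), and Lsm14a without the same 4 pools (up to 0.107). Sf3b2 was lost without control replicate 2 or exposed replicate 1 or 3 (up to 0.0747), Snrpb without control replicate 1 or 2 or exposed replicate 1 (up to 0.0610), Snrpg without control replicate 1 or exposed replicate 1 (up to 0.0621) and Lsm10 without control replicate 1 or 2 (up to 0.0949). In the fit with the spike ratio, none of the 17 higher calls remained, where 0.0788% of all genes were called higher, and the core median was 0.15. Sf3a2 was then still lower (-0.89, adjusted p = 0.0436), where 1.73% of all genes were called lower.

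**Figure D2:**
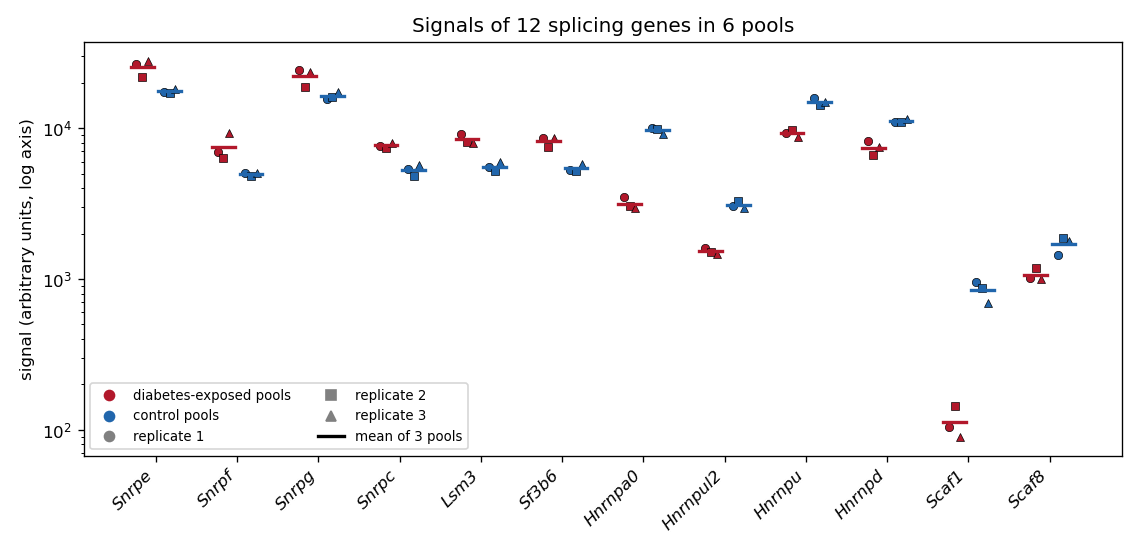
Signals (arbitrary units, log axis) of 12 splicing genes in 3 diabetes-exposed pools (left of each pair) and 3 control pools (right), each read at its brightest probe set. Points are pools, shaped by replicate number, and bars are means of 3 pools. The exposed pools lie above the control pools for Snrpe to Sf3b6 and below them for Hnrnpa0 to Scaf8, with no overlap in any of the 12 genes. When the spike ratio was a covariate only Hnrnpa0, Hnrnpul2, Hnrnpd and Scaf1 of these were called.

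The classical SR proteins varied little at their brightest probe sets. Of 10 Srsf genes, 1 was higher, 1 lower and 8 were not called, with log2 fold changes between -0.40 and 0.43. Over all genes 17.6% were higher and 19.9% lower. Srsf3, a small SR protein that also takes part in mRNA export, had 17075.0, 14738.0 and 18028.4 in exposed pools, against 12055.6, 12022.8 and 13576.8 in control pools (log2 fold change 0.40 ± 0.10 (SE), adjusted p = 0.0125), with no overlap. This call ended with quantile (0.10, adjusted p = 0.15) and loess normalization (0.03, adjusted p = 0.681). Srsf9 was lower, with 3556.9, 3934.0 and 3036.0 in exposed pools, against 5066.5, 4385.6 and 4437.8 in control pools (log2 fold change -0.40 ± 0.11 (SE), adjusted p = 0.0217), also with no overlap. Srsf2, which binds exonic enhancers in many transcripts, had 14844.2, 15424.9 and 14797.9 in exposed pools and 16648.4, 15934.7 and 16010.3 in control pools, just short of overlapping, and was not called (log2 fold change -0.11 ± 0.07 (SE), adjusted p = 0.257). Its next brightest probe sets were called lower. One had 2182.2, 3008.8 and 1849.4 in exposed pools, against 5001.0, 4952.9 and 4623.9 in control pools (log2 fold change -1.08, adjusted p = 0.00164), and the other 1348.9, 2818.9 and 1403.4 in exposed pools, against 4551.1, 4094.7 and 3691.7 in control pools (log2 fold change -1.23, adjusted p = 0.00623). In both, exposed replicate 2 was the exposed pool nearest to the control pools. Srsf12, at the top of the range, was dim and its groups overlapped, with 130.6, 130.0 and 63.5 in exposed pools and 85.6, 88.4 and 57.8 in control pools.

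Among the 6 SR-related genes 3 were lower and 1 higher (median -0.30), where 19.9% of all genes were lower and 17.6% higher. Scaf1, whose product binds the tail of RNA polymerase II, had 103.6, 143.2 and 89.1 in exposed pools, against 950.1, 869.5 and 695.7 in control pools (log2 fold change -2.92 ± 0.21 (SE), adjusted p = 0.00018). This was a 7.58-fold decrease, the largest of the 65 genes at their brightest probe sets, and every exposed pool was far below every control pool. The exposed signals lay near the median signals of their arrays, 74.1 to 78.9, so the size of the fold rests on dim values. Scaf1 was read by 1 probe set only. Scaf8 and Scaf4, which bind the same polymerase tail and in human cells restrain premature polyadenylation, were lower too. Scaf8 had 1014.8, 1175.4 and 1005.7 in exposed pools, against 1430.0, 1880.3 and 1783.4 in control pools (log2 fold change -0.67 ± 0.13 (SE), adjusted p = 0.00437), and Scaf4 had 529.0, 690.9 and 473.5 in exposed pools, against 807.4, 805.6 and 755.1 in control pools (log2 fold change -0.50 ± 0.15 (SE), adjusted p = 0.0279). The second tested probe set of Scaf4 was also called lower (log2 fold change -1.32). The other 2 tested probe sets of Scaf8 were not called. Probe set 1455310_at had 715.7, 563.1 and 710.3 in exposed pools, against 597.6, 732.9 and 693.9 in control pools (log2 fold change -0.03), and 1438419_at had 507.0, 413.2 and 549.6 in exposed pools, against 440.4, 427.2 and 417.0 in control pools (log2 fold change 0.18). Averaged over its probe sets Scaf8 was at -0.17 and not called (adjusted p = 0.229). Srrm1, a coactivator that bridges SR proteins and the core particles, was higher, with 4312.7, 3838.4 and 5341.8 in exposed pools, against 2371.3, 2308.9 and 3242.4 in control pools (log2 fold change 0.77 ± 0.16 (SE), adjusted p = 0.00640). Its control replicate 3 was the highest of the controls. Srrm2, a scaffold of nuclear speckles, was not called at its brightest probe set (log2 fold change -0.05, adjusted p = 0.626), nor was Scaf11 (log2 fold change -0.10, adjusted p = 0.370).

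Of the 6 calls among SR and SR-related genes, those of Scaf1, Scaf8 and Srrm1 were made whichever pool was left out. Srsf3 was not called without control replicate 1 or 2 or exposed replicate 1 (adjusted p up to 0.0602), Srsf9 without control replicate 1 or exposed replicate 1 or 3 (up to 0.0934), and Scaf4 without control replicate 1 or 2 or exposed replicate 1 or 3 (up to 0.0932). In the fit with the spike ratio Scaf1 was still lower (-2.07, adjusted p = 0.0253) and no other gene of this class was called.

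Of the 19 hnRNP genes 5 were lower and 4 higher. These are shares of 26.3% lower and 21.1% higher, where 19.9% of all genes were lower and 17.6% higher. Hnrnpa0, which binds AU-rich elements of mRNA, had 3473.4, 3048.1 and 2935.0 in exposed pools, against 10090.3, 9806.5 and 9181.1 in control pools (log2 fold change -1.62 ± 0.09 (SE), adjusted p = 0.000126). That is a 3.08-fold decrease, with little spread within either group. Hnrnpa0 was read by 1 tested probe set only. Hnrnpul2, a relative of Hnrnpu that acts in the response to DNA breaks in human cells, had 1606.6, 1497.9 and 1472.4 in exposed pools, against 3038.7, 3290.6 and 2933.1 in control pools (log2 fold change -1.02 ± 0.09 (SE), adjusted p = 0.000253), and its second probe set gave 508.0, 509.8 and 454.5 in exposed pools, against 1232.0, 1213.4 and 1004.4 in control pools (log2 fold change -1.22, adjusted p = 0.00039). Both of its probe sets therefore fell by a similar amount. Hnrnpul1, the closest relative of Hnrnpul2 on this list, was at 3351.1, 3569.8 and 4059.1 in exposed pools and at 5419.3, 5066.3 and 5230.1 in control pools (log2 fold change -0.52 ± 0.09 (SE), adjusted p = 0.00314). Hnrnpu, a scaffold protein that also ties RNA to chromatin, was at 9253.4, 9763.6 and 8729.8 in exposed pools and at 15916.7, 14189.2 and 14848.1 in control pools (log2 fold change -0.70 ± 0.08 (SE), adjusted p = 0.000732). All 3 genes of the Hnrnpu type were thus lower at their brightest probe sets, with no overlap between groups. Hnrnpul1 had only 1 tested probe set.

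Hnrnpd, known as AUF1, directs the decay of mRNAs with AU-rich elements. It had 8156.4, 6682.7 and 7458.5 in exposed pools, against 11003.1, 10954.6 and 11486.7 in control pools (log2 fold change -0.59 ± 0.09 (SE), adjusted p = 0.00180). Its other 2 tested probe sets were lower as well, with log2 fold changes of -0.56 and -0.46 (adjusted p = 0.0490 and 0.0161), so that all 3 readings of this gene went the same way.

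A group of 4 hnRNP genes was higher. Hnrnpa1, which favours exon skipping in many transcripts, had 7226.0, 6241.7 and 7496.1 in exposed pools, against 4910.4, 4745.4 and 5101.2 in control pools (log2 fold change 0.50 ± 0.09 (SE), adjusted p = 0.00351). Hnrnpc, which binds runs of uridines, had 22288.8, 18085.6 and 23516.4 in exposed pools, against 15614.7, 14896.1 and 16098.1 in control pools (log2 fold change 0.45 ± 0.11 (SE), adjusted p = 0.0111). In both genes exposed replicate 2 was the lowest exposed pool and still above all control pools. Hnrnpk, a binder of runs of cytidines, had 19850.8, 16975.2 and 19927.7 in exposed pools, against 15671.1, 15255.0 and 15066.3 in control pools (log2 fold change 0.30 ± 0.08 (SE), adjusted p = 0.0241), and Hnrnph2, a binder of runs of guanosines, had 6346.1, 6150.9 and 6161.6 in exposed pools, against 5353.6, 5105.1 and 5188.2 in control pools (log2 fold change 0.25 ± 0.07 (SE), adjusted p = 0.0225). The increases of Hnrnpk and Hnrnph2 were small, and each call ended when any 1 of the 3 control pools, or exposed replicate 1 or 3, was left out (adjusted p up to 0.0954 and 0.101). With loess normalization the log2 fold change of Hnrnpk was -0.10, and with quantile normalization that of Hnrnph2 was -0.0047. A second probe set of Hnrnpa1 was not called, with overlapping signals of 4953.7, 6181.7 and 4301.5 in exposed pools and 5680.4, 5168.4 and 5839.2 in control pools (log2 fold change -0.13). The other 10 hnRNP genes were not called and lay between -0.36 and 0.29.

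Apart from Hnrnpk and Hnrnph2, the hnRNP calls were made whichever pool was left out. The call of Hnrnpc ended with loess normalization (0.03, adjusted p = 0.700), that of Hnrnpa1 when its probe sets were averaged (0.08, adjusted p = 0.624), and those of Hnrnpd, Hnrnpu and Hnrnpul1 with median centring (-0.29, -0.40 and -0.22). When the spike ratio was a covariate, Hnrnpa0 (-1.64, adjusted p = 0.0119), Hnrnpul2 (-1.01, adjusted p = 0.0342) and Hnrnpd (-0.87, adjusted p = 0.0209) were still lower and no hnRNP gene was higher. For these 3 genes, as for Sf3a2 and Scaf1, the decrease was called in both fits, which does not tell exposure and the ratio apart. Of these genes, Hnrnpd and Sf3a2 were not called with median centring. Hnrnpu was at -0.54 in that fit (adjusted p = 0.0826).

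**Figure D3:**
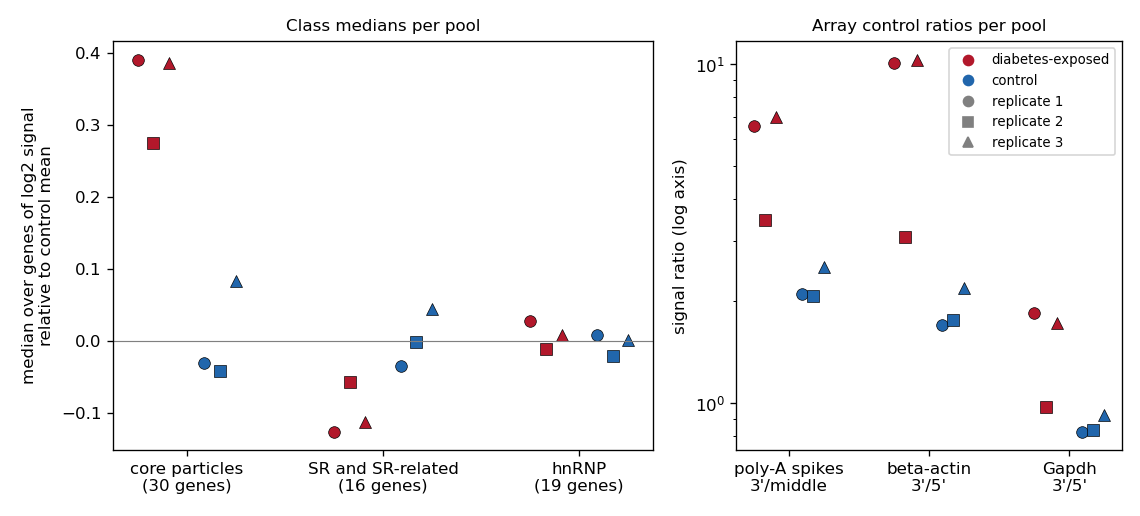
Left, the median over the genes of each class of the log2 signal relative to the mean of the control pools, for each pool. Right, 3' to middle or 3' to 5' signal ratios of array controls (log axis). Exposed pools are left of control pools and symbols give the replicate. For core particles exposed replicate 2 is at 0.28, nearer to the control pools than replicates 1 and 3 at 0.39, and its control ratios lie nearer to the control pools too.

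The exposed pools did not deviate equally. Exposed replicate 2 was the exposed pool nearest to the control mean in 35 of the 44 probe sets of these families called higher and in 37 of the 48 called lower. Over all probe sets this was so in 71.8% of those called higher and 64.4% of those called lower. The class median of the core genes, relative to the mean of the control pools, was 0.39, 0.28 and 0.39 in exposed replicates 1, 2 and 3, against -0.03, -0.04 and 0.08 in control replicates 1, 2 and 3. That of the SR and SR-related genes was -0.13, -0.06 and -0.11 in exposed pools, against -0.03, -0.00 and 0.04 in control pools, and that of the hnRNP genes was 0.03, -0.01 and 0.01 in exposed pools, against 0.01, -0.02 and 0.00 in control pools. The control ratios of exposed replicate 2 were also the nearest to those of the control pools. With only exposed replicate 2 left to stand for exposure, on the assumption that it varies like the control pools, 9 core genes were higher and 1 lower, 0 SR and SR-related genes were higher and 1 lower, and 1 hnRNP gene was higher and 5 were lower, where 6.43% of all genes were higher and 11.5% lower.

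Probe sets of the same gene disagreed often. At the level of probe sets, 44 of 173 were higher and 48 lower, where 14.4% and 21.8% of all 30025 tested probe sets were. At least 2-fold changes were seen in 2 higher and 28 lower probe sets, where 1.24% and 11.0% of all probe sets changed as much. The groups did not overlap in 107 of the 173, against 49.9% of all probe sets. In the fit with the spike ratio 6 of the 173 were lower, against 1.11% of all probe sets, and 0 were higher, against 0.0966%. In 45 genes with several tested probe sets, 10 had probe sets called in opposite directions (22.2%), where 8.58% of 6515 such genes did over the whole array. The median span between the highest and the lowest log2 fold change of a gene was 0.99 in these 45 genes and 0.77 over all. The span was at least 1 in 22 of them, 48.9% against 39.5%. Opposite calls and wide spans are likelier in genes with more tested probe sets, of which these genes had up to 7. They are also likelier where more probe sets are called. The comparison was matched for neither, so it does not show a trait of these families. The brightest probe set of a gene had a higher log2 fold change than the median of its others in 64.4% of the 45 genes and in 66.1% of all such genes. Which part of the transcript each probe set reads was not analysed here.

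Srsf1, the founding SR protein, shows the pattern. Its brightest probe set had 18762.0, 14849.8 and 18656.2 in exposed pools and 15860.3, 15735.1 and 15532.8 in control pools, which overlapped (log2 fold change 0.14, adjusted p = 0.312). A dimmer probe set, 1452430_s_at, had 451.7, 1864.5 and 423.9 in exposed pools, against 7922.6, 6567.0 and 5438.8 in control pools (log2 fold change -3.21 ± 0.49 (SE), adjusted p = 0.00189). In that probe set exposed replicate 2 was several times above the other exposed pools and still below every control pool. Probe set 1430982_at had 6069.4, 6927.7 and 5426.3 in exposed pools, against 8982.9, 8654.6 and 8484.9 in control pools (log2 fold change -0.51, adjusted p = 0.00470), and its other 3 tested probe sets were not called.

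Hnrnpr, a binder of axonal mRNAs, had its brightest probe set at -0.04 (adjusted p = 0.743). Its probe set 1437526_x_at was higher, with 8494.5, 6872.3 and 9008.9 in exposed pools, against 6482.4, 6345.2 and 5989.5 in control pools (log2 fold change 0.36), and 1452030_a_at was lower, with 67.4, 317.2 and 113.2 in exposed pools, against 2271.6, 2067.5 and 1433.6 in control pools (log2 fold change -3.81). Hnrnpf, which binds runs of guanosines, had 1437099_x_at higher (log2 fold change 0.40) and both 1450963_at and 1423382_a_at lower (log2 fold changes -1.15 and -1.13). Of the lower pair, 1450963_at had 2053.5, 4215.4 and 2065.4 in exposed pools, against 5648.5, 5625.5 and 6197.0 in control pools, with exposed replicate 2 between the other exposed pools and the control pools. Srsf3 had 4 probe sets higher, between 0.37 and 0.70, and 1438215_at lower at 129.3, 273.4 and 117.7 in exposed pools, against 748.5, 811.9 and 628.5 in control pools (log2 fold change -2.17). For Sf3a3 the call at the brightest probe set, 0.30, stood against -2.91 at 1432488_a_at, which had 86.5, 621.0 and 148.5 in exposed pools and 1615.9, 1623.4 and 1303.1 in control pools.

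The remaining genes with calls in both directions were Lsm6, Lsm14a, Snrpd3, Srrm1, Srrm2 and Srsf6. Lsm6 was lower only at a dim probe set, 1455926_at, with 20.0, 36.9 and 11.0 in exposed pools, against 72.0, 60.5 and 92.9 in control pools, and Lsm14a at 1428436_at, with 1486.2, 2164.0 and 1284.0 in exposed pools, against 2535.2, 2407.7 and 2503.0 in control pools (log2 fold change -0.63). Srrm1 was lower at 1420934_a_at and 1420935_a_at (log2 fold changes -1.15 and -2.04). Srrm2 was higher at 1437638_at, with 872.0, 817.5 and 842.3 in exposed pools, against 374.5, 490.3 and 187.5 in control pools (log2 fold change 1.37), and lower at 1438688_at, with 1090.7, 941.5 and 879.2 in exposed pools, against 2293.7, 2548.1 and 1368.1 in control pools (log2 fold change -1.05). Snrpd3 was higher at 1449629_s_at and lower at 1422885_at (log2 fold changes 0.52 and -0.66). Srsf6 was higher at 1447898_s_at and lower at 1416720_at (log2 fold changes 0.56 and -0.43), while its brightest probe set was at 0.03. Among genes without opposite calls, Hnrnpu ranged from -2.35 to 0.08, Sf3b2 from -3.13 to -0.02, and Scaf11 from -3.90 to 0.31 over their probe sets. Sf3b1 was called higher at 1440818_s_at (log2 fold change 0.71), with 5425.9, 4601.0 and 6982.1 in exposed pools, against 3432.4, 3343.1 and 3491.0 in control pools, and at no other probe set.

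**Figure D4:**
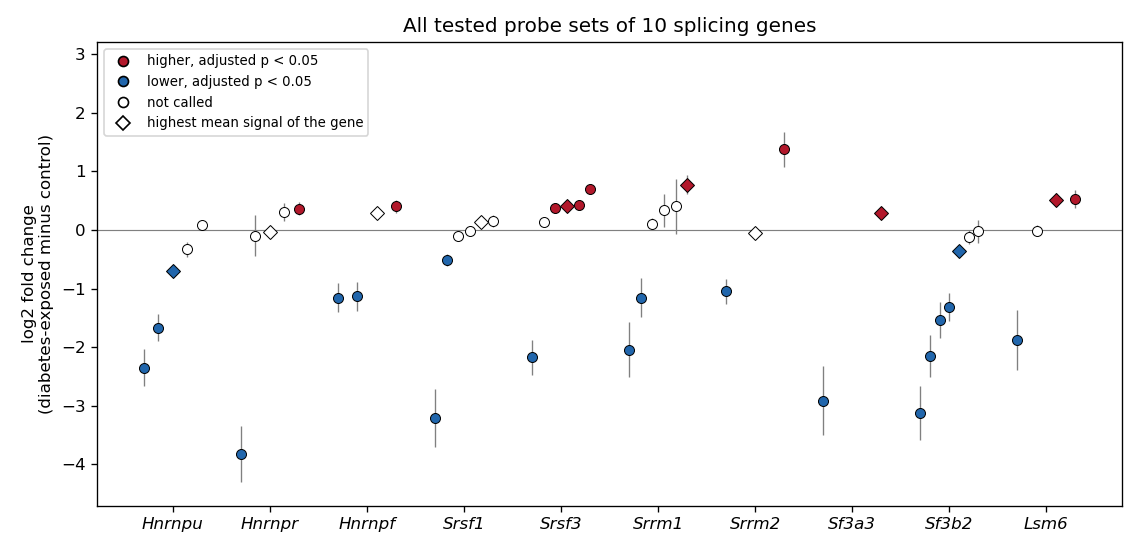
Log2 fold change (diabetes-exposed minus control, y axis) with standard error of every tested probe set of 10 splicing genes, 3 pools per group, filled where the adjusted p was under 0.05. Diamonds mark the probe set with the highest mean signal of each gene. In Hnrnpr the probe sets run between -3.81 and 0.36, and in Srsf1 between -3.21 and 0.16, and all diamonds lie between -0.70 and 0.77.

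When all tested probe sets of a gene were averaged instead, 11 core genes were higher and 3 lower, no SR or SR-related gene was higher and 7 were lower, and 3 hnRNP genes were higher and 9 lower, where 13.5% of all genes were higher and 25.2% lower. Sf3a3 was then at -1.31, Srrm1 at -0.26, Snrpb2 at -0.34, Lsm6 at -0.21 and Srsf3 at -0.02. The direction of these 5 genes thus depended on the probe sets read. Without probe sets whose names mark possible binding to several transcripts, Lsm14a was at -0.63 and Snrpb at -0.10. Under that choice 14 core genes were higher and 3 lower, 1 SR or SR-related gene was higher and 4 lower, and 4 hnRNP genes were higher and 6 lower, where 15.5% of all 13648 genes with such probe sets were higher and 21.2% lower.

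The rest of the splicing machinery was read from lists written by function. Of 167 listed genes 152 were tested, of which 38 were higher and 33 lower (11 of these at least 2-fold), with a median log2 fold change of 0.05. These are shares of 25.0% higher and 21.7% lower, where 17.6% of all genes were higher and 19.9% lower, and 6.01% at least 2-fold lower. Other proteins of the small nuclear ribonucleoproteins had 11 of 36 higher and 7 lower. The U5 protein Snrnp40 was at 10864.1, 9944.7 and 11728.5 in exposed pools, against 6881.0, 6571.1 and 6025.4 in control pools (log2 fold change 0.74 ± 0.09 (SE), adjusted p = 0.000863), and Sart1, which joins U5 to U4 and U6, at 534.4, 459.9 and 550.1 in exposed pools, against 1000.0, 960.0 and 1010.1 in control pools (log2 fold change -0.95 ± 0.11 (SE), adjusted p = 0.000732). Among proteins of the Prp19 complex and the RNA helicases 11 of 30 were higher and 6 lower. Bud31, a component of the active spliceosome, had 11620.6, 8812.0 and 11296.6 in exposed pools, against 5505.8, 5386.9 and 6286.5 in control pools (log2 fold change 0.88 ± 0.12 (SE), adjusted p = 0.00123), and the helicase Dhx16 had 632.7, 738.5 and 542.4 in exposed pools, against 1210.4, 1245.8 and 1248.7 in control pools (log2 fold change -0.96 ± 0.13 (SE), adjusted p = 0.00107). For the 5 tested genes of the exon junction complex and its partners, 2 were higher and 3 lower, with Rbm8a, a core subunit, at 8571.2, 7595.2 and 9212.8 in exposed pools and 5799.2, 5785.5 and 6319.6 in control pools (log2 fold change 0.50 ± 0.09 (SE), adjusted p = 0.00389). Pnn, a protein of nuclear speckles, had 2161.3, 2705.7 and 2306.1 in exposed pools, against 5511.1, 4852.9 and 4045.0 in control pools, a 2-fold decrease (adjusted p = 0.00109).

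Of 13 genes for the assembly of the small nuclear ribonucleoproteins 2 were higher and 3 lower. For this and the lists that follow, the shares of all genes are 17.6% higher and 19.9% lower. Tgs1, an enzyme that methylates the cap of small nuclear RNAs, had 6067.5, 4202.0 and 5939.5 in exposed pools, against 3016.9, 2949.7 and 3288.8 in control pools (log2 fold change 0.79 ± 0.14 (SE), adjusted p = 0.00332). Smn1, the survival motor neuron protein that loads Sm rings, had 805.0, 1553.4 and 828.9 in exposed pools, against 1877.1, 1885.7 and 1829.1 in control pools (log2 fold change -0.88 ± 0.23 (SE), adjusted p = 0.0158). Exposed replicate 2 stood nearer to the control pools in both, and the call of Smn1 ended without control replicate 1 or exposed replicate 1 or 3 (adjusted p up to 0.0625). Of 19 SR kinases and SR-like proteins 3 were higher and 5 lower, among them the kinases Clk1 (log2 fold change 0.34, adjusted p = 0.0196), which was not called without control replicate 1 or 2 or exposed replicate 1 or 3 (adjusted p up to 0.0915), and Dyrk1a, with 447.5, 484.3 and 377.7 in exposed pools, against 1234.4, 1058.7 and 1078.9 in control pools (log2 fold change -1.37 ± 0.13 (SE), adjusted p = 0.000338). Of 22 relatives of the hnRNP proteins 7 were higher, such as the nuclear matrix protein Matr3 (log2 fold change 0.49 ± 0.09 (SE), adjusted p = 0.00354), and 3 lower, such as Khsrp, a factor in AU-rich mRNA decay (log2 fold change -1.02 ± 0.13 (SE), adjusted p = 0.000933). Of 27 splicing regulators restricted to some tissues 2 were higher and 6 lower. Nova2, a neuronal regulator, had 415.7, 299.8 and 347.9 in exposed pools, against 1140.9, 1182.4 and 930.4 in control pools (log2 fold change -1.62 ± 0.15 (SE), adjusted p = 0.00036), and Mbnl2, known from muscle and brain, had 1852.8, 1624.9 and 2006.6 in exposed pools, against 1143.0, 1195.5 and 1405.6 in control pools (log2 fold change 0.55 ± 0.12 (SE), adjusted p = 0.00733). In the fit with the spike ratio, Nova2 (-1.90, adjusted p = 0.0316) and Sart1 (-1.26, adjusted p = 0.0282) were the 2 genes of these lists called, both lower. Averaged over all their probe sets, Tgs1 was at -0.80 and Mbnl2 at -0.85, and without probe sets that may bind several transcripts Bud31 was at -0.42.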

How the data were processed

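Pooled total RNA was labelled by the one-cycle method and hybridised to 6 arrays. The authors deposited signal intensity values on a linear scale, 1 per probe set, made with GCOS and MAS5 from matched and mismatched probes (versions not given in the sources used here). MAS5 scales each array to a common trimmed mean, so that a signal is relative to the other transcripts of its pool. Log2 of the signals was tested with limma 3.58.1 in R 4.3.3 (lmFit, eBayes with a trend), leaving out 64 control probe sets and the dimmest 33.3%, and p was adjusted by Benjamini-Hochberg over 30025 probe sets. Gene symbols came from the platform annotation (34958 probe sets with 1 symbol, 932 with several and 9211 with none), and the gene numbers of 34754 probe sets were found in GRCm38.p6. Brightest means the highest mean log2 signal over the 6 pools. With 6 arrays their number limits the precision. The p-values set the difference between groups against the spread between pools, moderated over all tested probe sets. In the main fit they take no account of the difference in array control ratios.

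Members and lists were chosen with earlier results of these data known. Named were up to 4 genes per class and direction with the smallest adjusted p, genes changed at least 2-fold, genes with opposite calls, 7 genes chosen for their class or singled out earlier, and up to 1 gene per direction of each other list. Snrpe, Snrpf, Snrpg, Snrpa1, Snrnp70, Lsm1, Lsm2, Lsm4, Lsm7, Lsm8, Lsm10, Lsm11, Lsm12, Sf3b4, Sf3b5, Srsf1, Srsf12, Scaf11 and Hnrnpul1 and the genes at the ends of ranges were added after their values were seen. In a simulation of the exposed against control contrast with 30025 probe sets, 67 of 100 probe sets changed 2-fold and 88 of 100 changed 4-fold were recovered, with 4 false calls. Only these probe sets were changed in it, whereas 36.2% were called in the data. It held no difference in array control ratios, so it does not give the error rates of the results above. Plots were made with matplotlib 3.10.9 (Python 3.11.15).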

Additional observations from a re-analysis of the deposited data

How the results depend on the processing

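The counts depended on how the arrays were scaled and on the spike ratio. Shares of all probe sets or genes stand in parentheses, higher first. In the order higher, lower and median log2 fold change, the main values were 17, 2 and 0.37 for core genes, 2, 4 and -0.09 for SR and SR-related genes, and 4, 5 and 0.02 for hnRNP genes, with 44 probe sets higher and 48 lower (14.4% and 21.8% of all). Median centring, which moved the median of all genes to 0.30, gave 20, 0 and 0.67 for core genes, 3, 1 and 0.21 for SR and SR-related genes, 7, 2 and 0.32 for hnRNP genes, and 63 and 30 probe sets (24.8% and 13.0% of all). Quantile normalization (median of all genes 0.14) gave 13, 3 and 0.23, then 1, 11 and -0.26, then 2, 12 and -0.26, and 36 and 68 probe sets (21.0% and 17.5% of all). Loess normalization (median of all genes 0.08) gave 12, 3 and 0.19, then 1, 9 and -0.28, then 1, 10 and -0.30, and 32 and 66 probe sets (17.3% and 19.2% of all). In the fit with the spike ratio the values were 0, 1 and 0.15, then 0, 1 and -0.035, then 0, 3 and -0.071, and 0 and 6 probe sets (0.0966% and 1.11% of all), of which 5 of the 92 main calls were kept. With exposed replicates 1 and 3 left out together they were 9, 1 and 0.28, then 0, 1 and -0.06, then 1, 5 and -0.011, and 16 and 33 probe sets (4.89% and 12.1% of all). Averaging a gene's probe sets (median of all genes -0.11) gave 11, 3 and 0.17, then 0, 7 and -0.24, then 3, 9 and -0.25 (13.5% and 25.2% of all genes). Without probe sets that may bind several transcripts the values were 14, 3 and 0.23, then 1 and 4 SR and SR-related genes (15.5% and 21.2% of all genes), and 26 and 40 probe sets (12.1% and 22.4% of all). With eBayes without a trend, 12 core genes were higher and 0 lower, 1 SR or SR-related gene was higher and 2 lower, and 1 hnRNP gene was higher and 5 lower (12.2% and 15.8% of all genes). In that fit 26 and 38 probe sets were called (10.5% and 17.8% of all). Welch's test, the kind of t-test named in the study's methods, was run here on the filtered log2 signals. The study's calls also required significance in Cyber-T, another test, and a fold-change cut, so these counts do not repeat its procedure. Welch's test gave 29 of the 65 genes at an unadjusted p under 0.05, of which 18 were higher and 11 lower. At that threshold 18.3% of all 13956 genes were higher and 18.6% lower. After Benjamini-Hochberg Welch's test gave 0 core genes. It gave 0 higher and 1 lower SR or SR-related gene, and 0 higher and 3 lower hnRNP genes (0.387% and 1.69% of all genes). It then gave 0 higher and 4 lower probe sets, against 81 higher and 333 lower of all 30025. The cause of these shifts was not tested.

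Leaving out 1 pool at a time gave 12 to 17 core genes higher and 1 to 3 lower (median 0.33 to 0.41), 1 to 3 SR and SR-related genes higher and 2 to 5 lower (median -0.11 to -0.06), and 2 to 7 hnRNP genes higher and 5 to 7 lower (median 0.01 to 0.03). In these fits 10.8% to 20.1% of all genes were higher and 13.2% to 22.5% lower. Of the probe sets of these families 29 to 55 were higher and 38 to 56 lower, where 9.1% to 16.5% and 14.6% to 24.5% of all probe sets were. The 7 higher hnRNP genes came without exposed replicate 2, and 2 came without each other pool. Deviations of same-numbered pools from their group means had correlations of 4.94e-05, 0.0761 and 0.118, against -0.116 to 0.0699 for pools of unlike numbers. With 3 pools per group these values cannot show or exclude a pairing, and the labels name none. A replicate block gave 47 probe sets higher and 50 lower (14.4% and 22.3% of all) and kept 91 of 92 probe set calls and all 34 gene calls. It made 5 hnRNP genes higher, where 17.3% of all genes were, Hnrnpf (0.29, adjusted p = 0.0321) being added. Every call of the 34 genes was also kept with a pseudocount of 32, with no filter on dim probe sets and with a filter of 50%.

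Of the 34 gene calls, others ended as follows. Quantile normalization ended 8 (Hnrnph2, Hnrnpk, Lsm14a, Scaf4, Sf3a3, Snrpb, Snrpg and Srsf3, adjusted p from 0.106 to 0.960) and loess 10 (the same 8, Hnrnpc and Snrpe, adjusted p from 0.0653 to 0.842). Averaging ended 11 (Hnrnpa1, Hnrnpk, Lsm14a, Lsm6, Scaf8, Sf3a3, Snrpa1, Snrpb, Snrpb2, Srrm1 and Srsf3), with Sf3a3 then called lower (adjusted p = 0.00754). Without the _s_at and _x_at probe sets, which may match several transcripts, 4 calls ended: Snrpb and Srrm1 were not called, Lsm14a was called lower (adjusted p = 0.0212) and Snrpe had no value. eBayes without a trend ended 13 (Hnrnpc, Hnrnph2, Hnrnpk, Lsm10, Lsm14a, Scaf4, Sf3a2, Sf3a3, Sf3b2, Snrpb, Snrpg, Srsf3 and Srsf9, adjusted p from 0.0516 to 0.0977). The spike ratio ended 29, Welch's test 30, and exposed replicates 1 and 3 left out together 18.

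Single genes changed sign as follows, in log2 fold change. With median centring, Hnrnpr was at 0.26, Lsm11 at 0.28, Scaf11 at 0.20, Srrm2 at 0.25 and Srsf2 at 0.19, and 8 calls ended (Hnrnpd, Hnrnpu, Hnrnpul1, Scaf4, Scaf8, Sf3a2, Sf3b2 and Srsf9). With quantile normalization, Hnrnpf was at -0.025, Hnrnph2 at -0.0047, Lsm11 at 0.32, Lsm2 at -0.021, Lsm4 at -0.15, Sf3b1 at -0.21, Sf3b4 at -0.11, Snrnp70 at -0.049, Snrpd3 at -0.091, Srsf1 at -0.16 and Srsf6 at -0.28. With loess, Hnrnpf was at -0.070, Hnrnpk at -0.10, Lsm11 at 0.21, Lsm2 at -0.017, Lsm4 at -0.13, Sf3b1 at -0.15, Sf3b4 at -0.089, Snrnp70 at -0.041, Snrpd3 at -0.051, Srsf1 at -0.25 and Srsf6 at -0.31. With the spike ratio as a covariate, Hnrnpc was at -0.0044, Hnrnpf at -0.14, Hnrnpl at 0.15, Hnrnpr at 0.037, Lsm14a at -0.037, Lsm7 at -0.031, Scaf4 at 0.11, Sf3b4 at -0.028, Smn1 at 0.26, Snrpg at -0.025, Srsf1 at -0.26 and Srsf6 at -0.13. With probe sets averaged, Hnrnpf was at -0.40, Lsm6 at -0.21, Mbnl2 at -0.85, Sf3a3 at -1.31, Sf3b1 at -0.11, Snrpb2 at -0.34, Srrm1 at -0.26, Srrm2 at 0.091, Srsf1 at -0.59, Srsf3 at -0.024 and Tgs1 at -0.80. Without probe sets that may bind several transcripts, Bud31 was at -0.42, Hnrnpf at -1.13, Lsm14a at -0.63 and Snrpb at -0.10. With exposed replicates 1 and 3 left out, Srsf1 was at -0.081 and Srsf6 at -0.045. With 1 pool left out at a time, 5 genes that were not called changed sign in at least 1 fit: Lsm11 ranged from -0.13 to 0.092, Lsm2 from -0.072 to 0.11, Snrnp70 from -0.094 to 0.13, Srsf6 from -0.0021 to 0.065 and Hnrnpr from -0.058 to 0.0024.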
